A study of Mus musculus with 2 samples.

Results

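The messenger RNAs of 5 Tudor domain genes, Tdrkh, Tdrd1, Tdrd5, Tdrd9 and Tdrd12, were examined as sources of small RNAs in mouse testis. Members were all sequences of 18 to 40 nt that matched, exactly and in the sense direction, a GENCODE M21 transcript of 1 of these genes, and they numbered 1403 of the 22794309 distinct sequences in both libraries together. The Tdrkh-/- library held 509 of them among 12118721 sequences and 60973266 reads, and the Tdrkh+/- library held 983 among 11808018 sequences and 43172204 reads. Each library came from 5 pooled pairs of testes at 11 days post partum (dpp), 1 library per genotype, so no difference had a replicate check, no test was run, and every interval covers counting error only.

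Both genotypes carried the same kind of allele, on 1 chromosome in the Tdrkh+/- control and on both in Tdrkh-/-. Exons 2 to 4, with the start codon in exon 2, had been floxed in a C57Bl6/129 background and excised with the EIIa-Cre transgene, which was then bred out. The deletion is therefore not restricted to germ cells. Per the series' design text 2 knockout lines were made, and which of them gave the library is not given in the sources used here. Whole testes were used, so a change in the number of cells that make an RNA and a change in the RNA per cell cannot be told apart.

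PIWI proteins of the male germline bind piRNAs, small RNAs cut from long single-stranded transcripts that include many messenger RNAs. The cut sets the 5′ end, which is usually a U, and the 3′ end is then shortened by a trimming enzyme at the mitochondrial surface before it is methylated. Tudor domain proteins bind the methylated arginines of PIWI proteins and hold the machinery together. Tdrkh, also called Tdrd2, is a Tudor and KH domain protein anchored in the outer mitochondrial membrane and takes part in trimming. Tdrd1 is a scaffold of the granules between mitochondria, Tdrd5 is needed for these granules and for piRNA production, and Tdrd9 and Tdrd12 carry helicase domains beside their Tudor domains. Here the genes are described as templates, through the small RNAs made from their own messengers, and these reads do not measure the proteins or the level of the messengers.

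Abundant sequences of 24 to 30 nt and 31 to 37 nt are shown first, followed by others that go against the length comparison, in DNA letters with T for U. The 31-nt sequences of Tdrkh and Tdrd9, shown first, also go against it, with more reads in Tdrkh+/-. A capital T at base 1 marks a 5′ U and a capital A marks an A at base 10. Sequences above 30 nt are shown by their first 30 bases, and positions are those of GRCm38 from a match to the annotated transcripts. The Tdrkh examples all lie in its 3′ untranslated region (UTR) on the plus strand, and the last pair starts at the same base.
Tdrkh 31 nt, chr3:94432341-94432371, 11 reads in Tdrkh-/- and 184 in Tdrkh+/-: Taagacctgtagttaattgtgtaaaaagcc
Tdrkh 26 nt, chr3:94432689-94432714, 15 reads and 54 reads: Tacgcagtgtatttgaggatcgcctg
Tdrkh 33 nt, chr3:94432700-94432732, 31 reads and 6 reads: Tttgaggatcgcctgggctacatgacaccc
Tdrkh 27 nt, chr3:94432700-94432726, 0 reads and 14 reads: Tttgaggatcgcctgggctacatgaca
The 31-nt sequence was the most abundant of all 5 genes in Tdrkh+/-, and the 33-nt sequence was the most abundant of all 5 in Tdrkh-/- among those that match a single gene.

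In Tdrd9, Tdrd5 and Tdrd1 the sequences shown lie in the coding region, and the Tdrd9 pair again differs only at its 3′ end. Tdrd5 lies on the minus strand, Tdrd1 and Tdrd9 on the plus strand.
Tdrd9 31 nt, chr12:112040483-112040513, 0 reads in Tdrkh-/- and 11 in Tdrkh+/-, and 36 nt, chr12:112040483-112040518, 7 reads and 0 reads: Tgaaacaactgactgctgagataaaccgcc
Tdrd5 27 nt, chr1:156277327-156277353, 5 reads and 26 reads: Tacccagatttcggaaatatcggaact
Tdrd5 36 nt, chr1:156270567-156270602, 21 reads and 0 reads: TttaaatgaAgaccaggagatactgcagca
Tdrd1 29 nt, chr19:56861713-56861741, 0 reads and 12 reads: Tagaacactgtaatgctcagaagggccag
Tdrd1 37 nt, chr19:56865926-56865962, 20 reads and 0 reads: caatatagctgagaatctggtgatgtgtgg
The Tdrd1 37-nt sequence has neither a 5′ U nor an A at base 10.

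The Tdrd12 sequences are nested on the minus strand within its coding region, with 5′ ends a few bases apart and nearly the same 3′ end, and their order of abundance turned between the libraries.
Tdrd12 31 nt, chr7:35505031-35505061, 11 reads in Tdrkh-/- and 1 in Tdrkh+/-: TaaactataAggattccttgacagactcgc
Tdrd12 29 nt, chr7:35505031-35505059, 15 reads and 21 reads: aactataaggattccttgacagactcgcc
Tdrd12 27 nt, chr7:35505030-35505056, 1 read and 45 reads: Tataaggattccttgacagactcgcct
The 27-nt sequence, with a 5′ U, led in Tdrkh+/-, and the 29-nt sequence without one led among the Tdrkh-/- reads of 24 to 30 nt.

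Other sequences that led their length class went against the shift, short ones with more reads in Tdrkh-/- and a long one with more in Tdrkh+/-. They lie in coding regions, but for that of Tdrkh, which is on a transcript other than the reference.
Tdrkh 30 nt, chr3:94426104-94426133, plus strand, 16 reads in Tdrkh-/- and 6 in Tdrkh+/-: Tgtttgaaagtatgtaatgaagaggagcct
Tdrd1 30 nt, chr19:56864332-56864361, plus strand, 14 reads and 0 reads: TctacgcagAttatggaaacatcgaaaccc
Tdrd5 30 nt, chr1:156277408-156277437, minus strand, 8 reads and 0 reads: TgttgtgtaAagatctctgaggacaagtgg
Tdrd9 29 nt, chr12:112024689-112024717, plus strand, 7 reads and 0 reads: aaggtgaagttgcttgacatgggtgaacc
Tdrd12 33 nt, chr7:35470280-35470312, minus strand, 0 reads and 9 reads: TctgaagacAttggcagcgagaccattagc
A Tdrd5 sequence of 34 nt, not shown, also led its class against the shift, with 0 reads in Tdrkh-/- and 5 in Tdrkh+/-. Each of these sequences was chosen as the most abundant of its gene and length class in the library where it had more reads. That choice favours an excess in the library used, so the list does not show that single sequences differed in both directions. The comparison rests on the sums per gene.

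Tdrkh (ENSMUSG00000041912.12) lies on chromosome 3 from 94413273 to 94434668 on the plus strand and had the most reads of the 5, 784 in Tdrkh-/- and 1132 in Tdrkh+/-, from 434 sequences that match no other gene. Tdrd1 (ENSMUSG00000025081.13, chromosome 19, 56826209 to 56870012, plus strand) had 643 and 477 reads from 353 such sequences. Tdrd5 (ENSMUSG00000060985.15, chromosome 1, 156255296 to 156303664, minus strand) had 344 and 314 reads from 192. Tdrd9 (ENSMUSG00000054003.13, chromosome 12, 111971559 to 112068854, plus strand) had the fewest reads, 199 and 288, from 181, and Tdrd12 (ENSMUSG00000030491.16, chromosome 7, 35469098 to 35537745, minus strand) had 299 and 456 from 208. In total the 1368 single-gene sequences carried 2269 and 2667 reads. The other 35 sequences match several genes. Of these, 34 lie in Tdrkh and match up to 378 genes, with 788 reads in Tdrkh-/- and 97 in Tdrkh+/-. These reads were divided equally among the genes they match and were left out of all positions, lengths and base shares below.

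All 5 genes gave mainly reads of piRNA size, 24 to 30 nt, in Tdrkh+/-, and longer reads of 31 to 37 nt were the larger class in Tdrkh-/-. Median lengths in Tdrkh+/- were 29 nt for Tdrkh, Tdrd1 and Tdrd9 and 28 nt for Tdrd5 and Tdrd12. In Tdrkh-/- they were 32 nt for Tdrkh, 33 nt for Tdrd9, 34 nt for Tdrd1 and Tdrd12 and 35 nt for Tdrd5. The most frequent single length moved from 27 to 37 nt in Tdrd5 and in Tdrd12, from 29 to 36 nt in Tdrd9, from 28 to 35 nt in Tdrd1 and from 31 to 33 nt in Tdrkh. The plot of lengths shows that the Tdrkh maximum at 31 nt in Tdrkh+/- is a single spike of 280 reads, to which the 31-nt sequence above contributed 184.

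**Figure D1:**
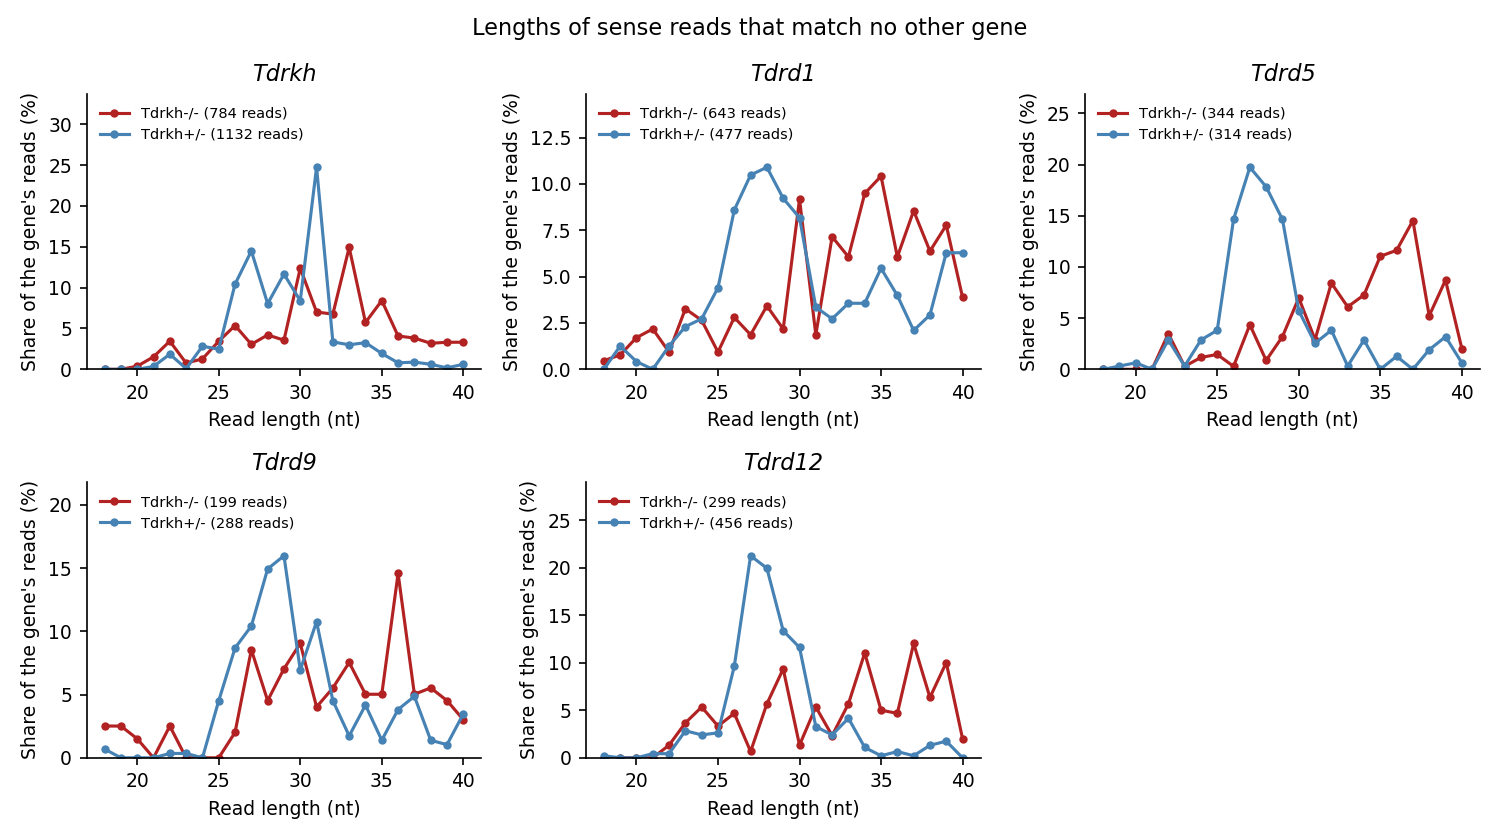
Share of each gene's reads at each read length (nt, horizontal axis; percent, vertical axis) in Tdrkh-/- (red) and Tdrkh+/- (blue), 1 library each, sequences that match no other gene. In each of the 5 genes the blue curve lies mostly at 25 to 31 nt and the red curve reaches further right.

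The balance of longer to piRNA-size reads needs no scaling between libraries, and it was higher in Tdrkh-/- in 5 of 5 genes. This was also so in 98.7% of 7669 host genes, protein-coding or long noncoding, that held 200 or more reads of 24 to 30 nt (98.5% of the 4125 holding 500 or more), so the direction is that of nearly every host. Tdrd5 moved furthest, from 0.137 longer reads per piRNA-size read in Tdrkh+/- to 3.38 in Tdrkh-/-, a 24.8-fold difference (95% interval 15.4 to 40.2). Tdrd12 moved from 0.149 to 1.52, which is 10.2-fold (6.78 to 15.3). Tdrd1 moved from 0.454 to 2.16, 4.75-fold (3.51 to 6.43), and Tdrd9 from 0.508 to 1.5, 2.95-fold (1.92 to 4.54). Tdrkh moved least, from 0.652 to 1.52, 2.34-fold (1.91 to 2.87). By reads, it no longer moved least without its 31-nt sequence of 11 and 184 reads. Its log2 ratios per microRNA read were then 0.58 for longer and -1.40 for piRNA-size reads, against -0.03 and -1.59 for Tdrd9. The median over the 7669 genes was 8.55-fold, so Tdrd5 and Tdrd12 lay above it and the other three below. Of all these genes 5.70% moved less than Tdrkh with its 31-nt sequence kept, 9.10% less than Tdrd9 and 91.7% less than Tdrd5.

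Reads of 24 to 30 nt were fewer in Tdrkh-/- in all 5 genes when set against microRNAs, small RNAs made without the piRNA pathway, of which the libraries held 2476236 and 2344624 reads. The difference was at least 2-fold in 4 of 5 genes, all but Tdrd1. Over the 7669 genes 70.8% fell that far (72.1% from 500 reads up), so 4 of 5 is near the background. Scaled per read listed or per read sense to protein-coding genes, 5 of 5 fell that far, against 83.2% and 80.9% of the genes. Tdrkh had 261 reads in Tdrkh-/- and 660 in Tdrkh+/-, a log2 ratio of -1.42 (-1.63 to -1.21), or -1.40 with the reads shared with other genes added in parts. Tdrd5 had 63 and 249 reads (-2.06, -2.48 to -1.66), Tdrd9 62 and 177 (-1.59, -2.03 to -1.17) and Tdrd12 91 and 369 (-2.10, -2.45 to -1.76). Tdrd1 had 148 and 260 reads and the smallest difference, -0.89 (-1.19 to -0.60). The median of the 5 was -1.59 and that of the 7669 genes -1.49. No member was at least 2-fold higher at this length, as 4.64% of the genes were (6.18% from 500 reads up).

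The genes parted among the longer reads of 31 to 37 nt. Tdrd5 rose most, with 213 reads in Tdrkh-/- and 34 in Tdrkh+/-, a log2 ratio of 2.57 (2.04 to 3.14). Tdrd1 had 319 and 118 reads (1.36, 1.05 to 1.67) and Tdrd12 138 and 55 (1.25, 0.79 to 1.73). Tdrkh, with 398 and 430 reads, and Tdrd9, with 93 and 90, were close to even at -0.19 (-0.39 to 0.01) and -0.03 (-0.47 to 0.40). At least 2-fold higher were thus 3 of 5, against 74.4% of the 7669 genes (77.6% from 500 reads up), and none was 2-fold lower, against 1.15% (1.24%). Scaled per read listed in place of microRNA reads, Tdrd1 at 0.94 and Tdrd12 at 0.83 fell short of the 2-fold mark and 1 of 5 passed it, against 57.1% of the 7669 genes. Per read sense to protein-coding genes 2 of 5 did, against 61.3%. The members' median per microRNA read was 1.25 and that of all these genes 1.58. Among those genes 3.48% had a lower ratio than Tdrkh, 4.56% a lower one than Tdrd9 and 81.6% a lower one than Tdrd5.

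**Figure D2:**
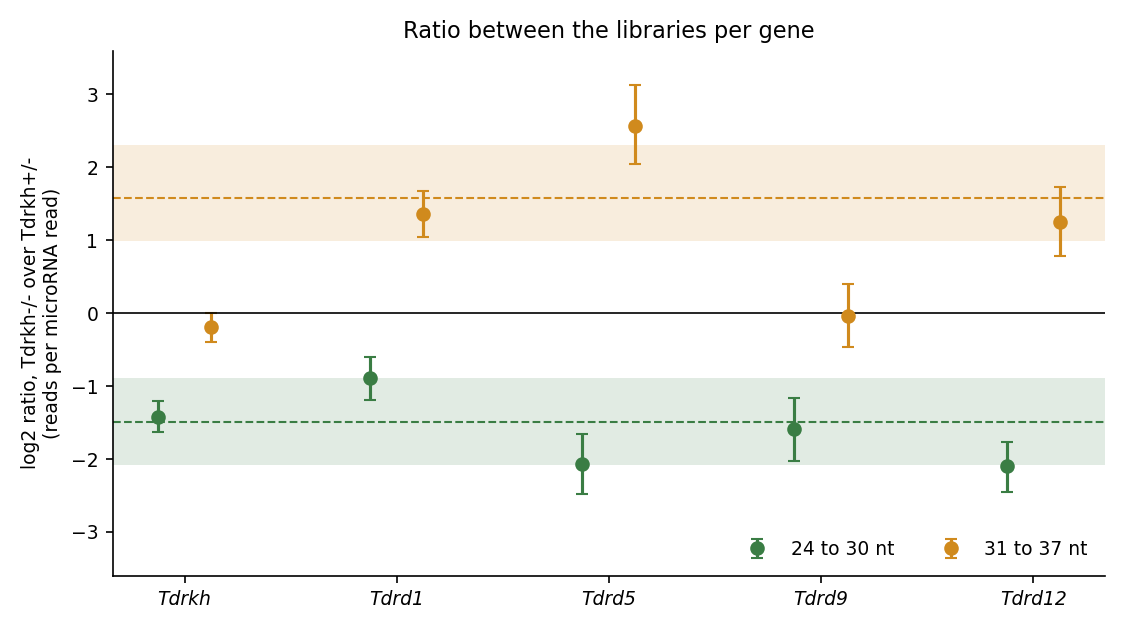
Log2 ratio of Tdrkh-/- to Tdrkh+/- in reads per microRNA read (vertical axis) for each gene, at 24 to 30 nt (green) and 31 to 37 nt (orange), sequences that match no other gene; points carry 95% counting intervals, and dashed lines and bands are the median and the middle 50% of 7669 genes. Every green point lies below 0, and the orange points of Tdrkh and Tdrd9 lie near 0, below the orange band.

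One sequence moved the value of Tdrkh by reads. Without its 31-nt sequence of 11 and 184 reads the log2 ratio at 31 to 37 nt was 0.58 rather than -0.18, with reads shared with other genes added in parts, which is still below the middle 50% of the genes (0.986 to 2.31). In a narrower window of 33 to 36 nt it was 1.27, and that of Tdrd9 was 0.92. Over 24 to 40 nt together Tdrd5 was close to even, its 331 and 301 reads giving 0.06 (-0.17 to 0.29), but at -0.36 per read listed and -0.26 per read sense to protein-coding genes. Tdrd1 was at 0.29 (0.11 to 0.47) per microRNA read, and at -0.13 and -0.03 under these other scalings. The sum was lower for Tdrkh at -0.67 (-0.80 to -0.53), Tdrd9 at -0.73 (-1.01 to -0.45) and Tdrd12 at -0.70 (-0.92 to -0.49).

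Per kb of reference messenger the order of the genes differed between libraries. At 24 to 30 nt in Tdrkh+/- the levels were 49.5 reads per kb per 1000000 microRNA reads for Tdrkh, 43.1 for Tdrd12, 28.3 for Tdrd5, 21.4 for Tdrd1 and 15.7 for Tdrd9. In Tdrkh-/- they were 18.5, 10.1, 6.77, 11.5 and 5.21 in the same order of genes. At 31 to 37 nt the levels in Tdrkh-/- were 28.2 for Tdrkh, 24.8 for Tdrd1, 22.9 for Tdrd5, 15.3 for Tdrd12 and 7.81 for Tdrd9. None is an abundant host. By reads of 24 to 30 nt in both libraries, Tdrkh ranked 2550 and Tdrd9 6940 among the 24209 genes with such a read, with the others between.

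The 2 libraries differed in how often each sequence was read, which bears on every read count above. Of the single-gene sequences of the 5 genes, 48 of 479 in Tdrkh-/- were read once (10.02%, 95% Wilson interval 7.64 to 13.04%), against 414 of 967 in Tdrkh+/- (42.8%, 39.7 to 46.0%). The median was 4 reads per sequence in Tdrkh-/- and 2 in Tdrkh+/-. Sequences in a single gene of any kind had similar shares read once, 12.2% and 40.7%. Among all sequences listed, with or without a match, 66.0% and 67.7% were read once. A read in Tdrkh-/- was therefore more often a repeat of a sequence already seen.

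With each distinct sequence counted once, the 5 genes were lower still at 24 to 30 nt, and only Tdrd5 stayed 2-fold higher at 31 to 37 nt. At the shorter length the numbers of sequences in Tdrkh-/- and Tdrkh+/- were 56 and 212 for Tdrkh, 36 and 116 for Tdrd1, 13 and 92 for Tdrd5, 13 and 79 for Tdrd9 and 19 and 119 for Tdrd12. Still set against microRNA reads, the log2 ratios ran from -1.77 for Tdrd1 to -2.90 for Tdrd5, and 5 of 5 were at least 2-fold lower, against 92.6% of the 7669 genes. Distinct microRNA sequences numbered 2064 in Tdrkh-/- and 2680 in Tdrkh+/-. Set against those, every ratio in this count would be higher, which was not computed. At the longer length Tdrd5 had 44 and 17 sequences (1.29, 0.46 to 2.19), Tdrd1 68 and 61 (0.08, -0.44 to 0.60) and Tdrkh 71 and 86 (-0.36, -0.83 to 0.12). Tdrd12 had 22 and 29 (-0.48, -1.35 to 0.37) and Tdrd9 26 and 45 (-0.87, -1.63 to -0.14). So counted, 1 of 5 was 2-fold higher, against 13.3% of the genes, and the median of the genes at this length was 0.24 rather than 1.58. The direction of the shift in length held in this count and its size did not. Longer sequences per piRNA-size sequence were more frequent in Tdrkh-/- in 5 of 5 genes and in 99.3% of all these genes. They were 18.3-fold more frequent in Tdrd5, 3.59-fold in Tdrd1, 3.51-fold in Tdrd9 and 3.13-fold in Tdrkh. In Tdrd12 the difference was 4.75-fold, against 10.2-fold by reads. The part of repeated reads in the ratios by reads was not tested.

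The excised exons of Tdrkh gave no sense read in Tdrkh-/-. Exons 2 to 4, on chromosome 3 between 94422802 and 94424690, had 0 reads in Tdrkh-/- and 17 in Tdrkh+/- (exact Poisson interval 9.90 to 27.2), from 9 distinct sequences. Of the 17, 14 lay in exon 2, 0 in exon 3 and 3 in exon 4. Set at the 3 reads that a count of 0 allows, the knockout level was 5.98-fold lower per microRNA read than the 17 reads counted. It was 3.49-fold lower than the lower end of their interval. Both values take reads as independent, but single-gene Tdrkh sequences had a median of 4 reads each in Tdrkh-/-, so they are not firm bounds. No bound was computed for the 0 and 9 distinct sequences. The other exons had 784 and 1115 reads. The most abundant sequence there, shown because it lies in the excised part, begins in the 5′ UTR and runs over the annotated start codon.
Tdrkh exon 2, 31 nt, chr3:94422818-94422848, plus strand, 0 reads in Tdrkh-/- and 4 in Tdrkh+/-: acaacagaaAatgtccactgaacgaacttc
No read in either library crossed from exon 1 into exon 2, and none crossed from exon 1 into exon 5, the junction that the deletion would leave, so the reads say nothing on the joined transcript.

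The part of Tdrkh that the deletion leaves remained a source of small RNAs in Tdrkh-/-, and by reads the last exon and those before it differed in direction. Exons 1 and 5 to 13 had 183 reads in Tdrkh-/- and 105 in Tdrkh+/-, a log2 ratio of 0.72 (0.37 to 1.08). Exon 14, which holds most of the 3′ UTR, had 545 and 982 (-0.93, -1.08 to -0.78). By distinct sequences exons 1 and 5 to 13 had 41 and 59 and exon 14 had 108 and 239. In that count both were lower, at -0.60 (-1.22 to -0.0046) and -1.22 (-1.57 to -0.89), so the opposite directions were lost. Exon 5, the first after the deletion, had 37 and 9 reads, 32 and 6 of them of 31 to 37 nt. Exon 12 had 53 and 18, exon 7 had 19 and 4, and exon 6 had 21 and 24. Exon 1 had none in either library. Transcripts of Tdrkh other than the reference had 56 and 28 further reads.

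**Figure D3:**
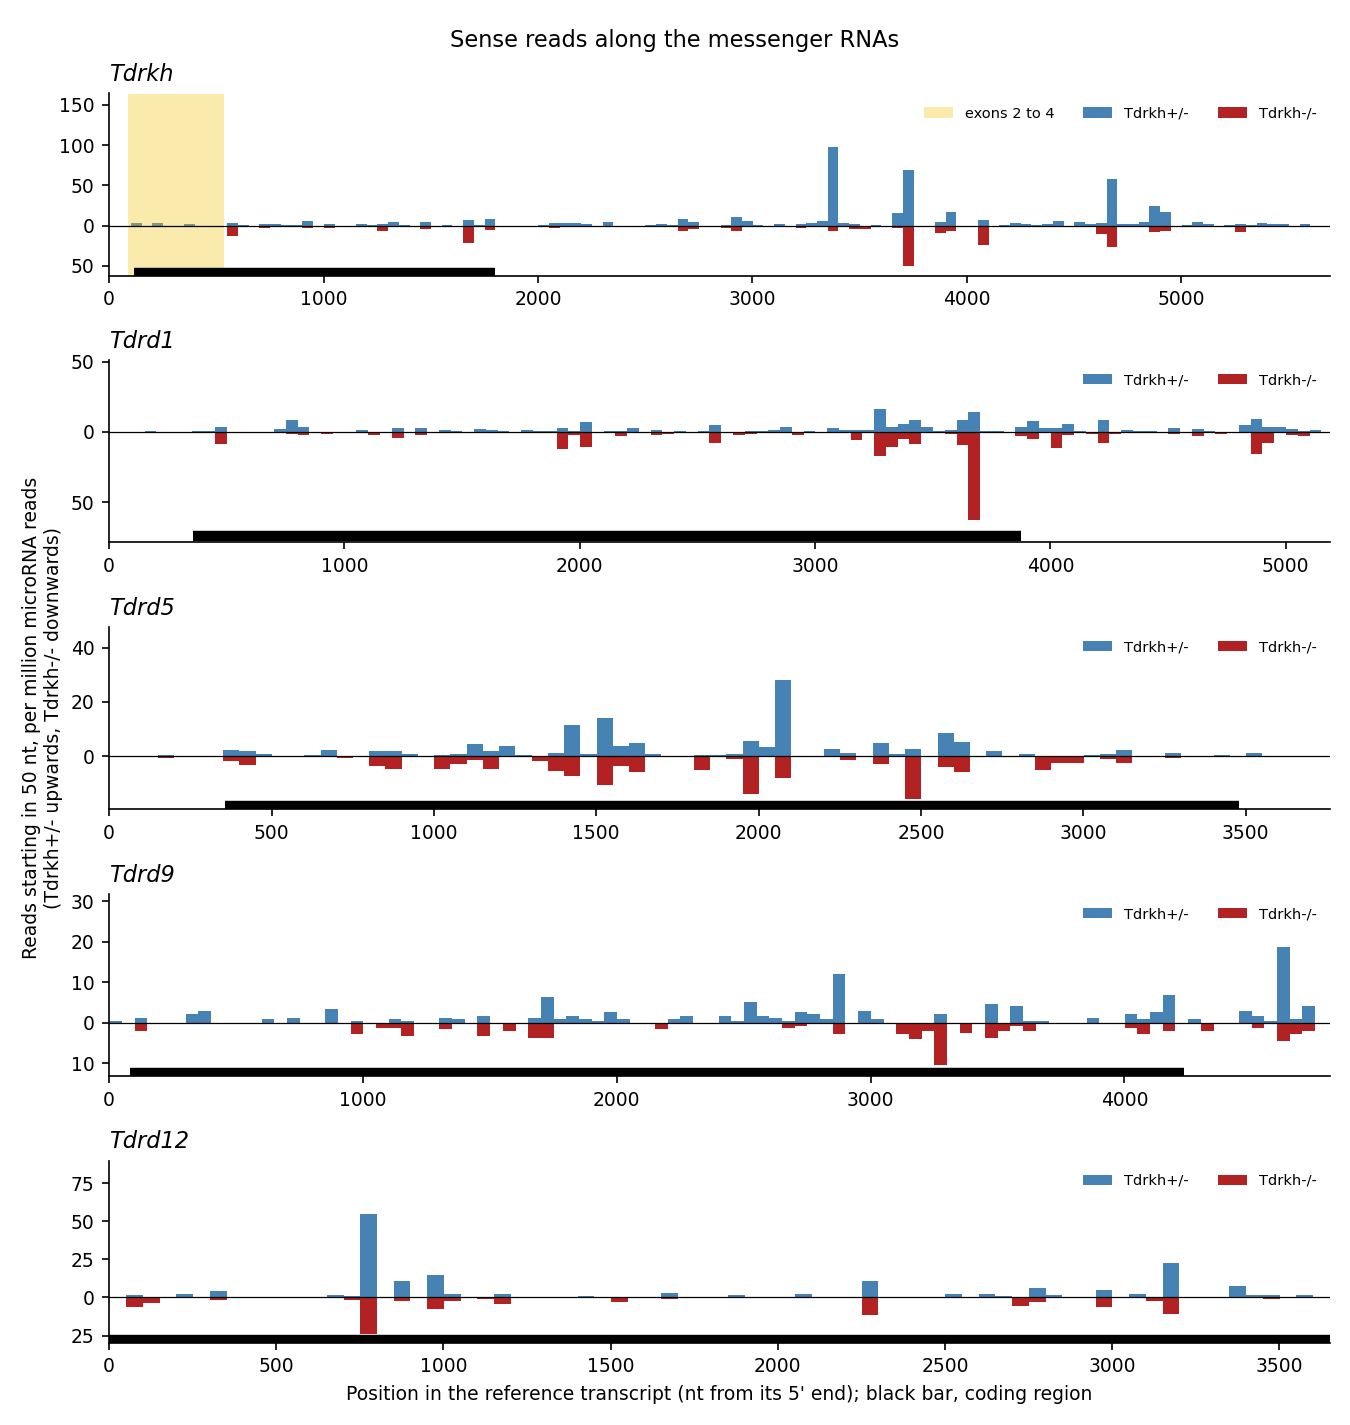
Reads that start in each 50 nt of the reference messenger (horizontal axis, nt from its 5′ end), per 1000000 microRNA reads, upwards for Tdrkh+/- (blue) and downwards for Tdrkh-/- (red), each panel on its own scale, with the coding region as a black bar. The shaded exons 2 to 4 of Tdrkh hold blue bars alone, and most Tdrkh reads start in the 3′ UTR to the right of its coding region.

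Tdrkh was the only gene with most of its reads in the 3′ UTR of the reference messenger. Tdrkh is the only one whose reference messenger is mostly 3′ UTR, 68.4% of 5692 nt, and at 24 to 30 nt the 3′ UTR held 80.3% of reads in Tdrkh-/- (74.6 to 84.9%) and 87.8% in Tdrkh+/- (85.1 to 90.2%). At 31 to 37 nt the shares were 72.6% (67.9 to 76.9%) and 91.4% (88.3 to 93.7%). A stretch of 1500 nt, chosen as the one with the most Tdrkh+/- reads and 26.4% of the messenger, held 64.9% of its reads in Tdrkh+/- and 52.5% in Tdrkh-/-. That choice favours Tdrkh+/-, so these shares do not compare the libraries. Coding reads of Tdrkh at 31 to 37 nt numbered 104 in Tdrkh-/- and 33 in Tdrkh+/- (log2 ratio 1.58, 0.9999 to 2.19), and 3′ UTR reads 276 and 392 (-0.58, -0.81 to -0.36). The coding reads came from 21 and 22 distinct sequences (-0.15, -1.08 to 0.78), so their higher number was not seen when each sequence was counted once. The 3′ UTR reads came from 46 and 62 distinct sequences (-0.51, -1.09 to 0.06). The 31-nt sequence gave 11 and 184 of these 3′ UTR reads, and without it they were not lower in Tdrkh-/-. At 24 to 30 nt the coding ratio was -0.80 (-1.36 to -0.24) and the 3′ UTR ratio -1.68 (-1.93 to -1.44).

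The other messengers gave mostly coding reads. Tdrd1, with 67.8% of 5187 nt coding, had 81.1% of its 24 to 30 nt reads there in Tdrkh-/- (74.0 to 86.6%) and 70.4% in Tdrkh+/- (64.6 to 75.6%). Among the longer reads its coding ratio was 1.49 (1.11 to 1.89) and its 3′ UTR ratio 1.08 (0.55 to 1.63). By distinct sequences these were 0.23 (-0.42 to 0.88) and -0.21 (-1.14 to 0.71), so neither was 2-fold higher in that count. Tdrd5, 83.1% of 3759 nt coding, had no 3′ UTR read in Tdrkh-/- and 3 in Tdrkh+/- over all lengths, against 342 and 310 coding reads. Tdrd9, 86.3% of 4809 nt coding, had 82.3% (71.0 to 89.8%) and 68.4% (61.2 to 74.8%) of its shorter reads there. Its 3′ UTR fell from 56 to 11 reads at 24 to 30 nt (-2.43, -3.51 to -1.48) and its coding region from 121 to 51 (-1.33, -1.83 to -0.84). That 3′ UTR is 11.9% of the Tdrd9 messenger and held 17.7% (10.2 to 29.0%) of these reads in Tdrkh-/- and 31.6% (25.2 to 38.8%) in Tdrkh+/-. At 31 to 37 nt it held 15.1% and 13.3%. A 3′ UTR share above the share of the length was thus not particular to Tdrkh. The 5′ UTRs of all 5 gave 0 to 7 reads per library. The reference transcript of Tdrd12, 3651 nt, is annotated as coding throughout, so it says nothing on UTRs, and 53 and 51 further reads of Tdrd12 lay on its other transcripts. At 24 to 30 nt in Tdrkh, Tdrd1 and Tdrd9, the 3 genes with 3′ UTR reads in both libraries, the 3′ UTR ratio was below the coding ratio by reads. By distinct sequences this was so for Tdrkh and Tdrd1 and not for Tdrd9, with -2.49 and -2.73.

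Reads of the 5 genes mostly began with U, the base preference of piRNAs cut by the primary route. At 24 to 30 nt 72.3% did in Tdrkh-/- (68.7 to 75.7%) and 74.2% in Tdrkh+/- (72.0 to 76.2%), somewhat under the 81.0% and 83.7% of all sequences in a single gene. Tdrkh had 80.8% and 83.5%, Tdrd5 88.9% and 79.1%, Tdrd9 75.8% and 63.8% and Tdrd12 65.9% and 65.0%. Tdrd1 had 52.7% and 65.8%, the lowest of the 5 in Tdrkh-/-, while Tdrd9 was lowest in Tdrkh+/-. At 31 to 37 nt Tdrd1 had a 5′ U in only 36.99% (31.9 to 42.4%) and 37.3% (29.1 to 46.3%), where all single-gene sequences had 82.4% and 74.6%. Tdrkh went the other way from Tdrd5, Tdrd9 and Tdrd12 at this length. It had 70.4% in Tdrkh-/- (65.7 to 74.6%) and 90.9% in Tdrkh+/- (87.8 to 93.3%), the second with 184 of 430 reads from 1 sequence, and 66.2% and 74.4% by distinct sequences. Tdrd5 had 58.7% (52.0 to 65.1%) and 41.2% (26.4 to 57.8%), and Tdrd9 66.7% (56.6 to 75.4%) and 47.8% (37.8 to 58.0%). Tdrd12 had 72.5% (64.5 to 79.2%) and 58.2% (45.0 to 70.3%). In each of these genes the intervals of the libraries overlap. An A at base 10 among reads without a 5′ U, a mark of piRNAs made by the secondary route, was found in 31.2% (24.8 to 38.5%) and 25.7% (21.9 to 30.001%) at 24 to 30 nt. At 31 to 37 nt the order was the other way, 27.5% (23.7 to 31.7%) and 33.5% (27.4 to 40.2%). All sequences in a single gene had 36.6% and 33.4% at the shorter and 38.1% and 35.6% at the longer length.

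The base that follows the 3′ end in the transcript was more often U in Tdrkh-/- in each gene, with overlapping intervals in some. At 24 to 30 nt it was a U for 54.9% of the Tdrkh-/- reads of the 5 genes (51.0 to 58.7%) and for 23.4% of the Tdrkh+/- reads (21.5 to 25.5%). Among the longer reads it was a U for 49.4% (46.5 to 52.2%) and 21.6% (18.8 to 24.7%). By distinct sequences the shares were 51.8% and 26.9% at the shorter and 48.1% and 30.3% at the longer length. Tdrkh had 56.3% and 23.9% at 24 to 30 nt, Tdrd1 59.5% and 24.2%, Tdrd5 57.1% and 23.7%, Tdrd12 51.6% and 18.7%. Tdrd9 differed least at that length, with 40.3% (29.0 to 52.7%) and 29.9% (23.7 to 37.1%), whose intervals overlap. Among the longer reads Tdrd1 was nearly even, at 29.2% (24.4 to 34.4%) and 24.6% (17.7 to 33.1%). At that length the intervals also overlapped for Tdrd9, with 48.4% (38.5 to 58.4%) and 36.7% (27.4 to 46.98%). The same held for Tdrd5, with 49.8% (43.1 to 56.4%) and 29.4% (16.8 to 46.2%). U makes up 24.5 to 28.3% of the bases of the 5 messengers. The Tdrkh+/- shares of single genes ran from 16.7% (13.5 to 20.6%) for Tdrkh to 36.7% (27.4 to 46.98%) for Tdrd9, both at 31 to 37 nt. The pattern is shared with other hosts, since all sequences in a single gene had 53.8% and 29.0% at 24 to 30 nt and 60.6% and 37.1% at 31 to 37 nt.

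**Figure D4:**
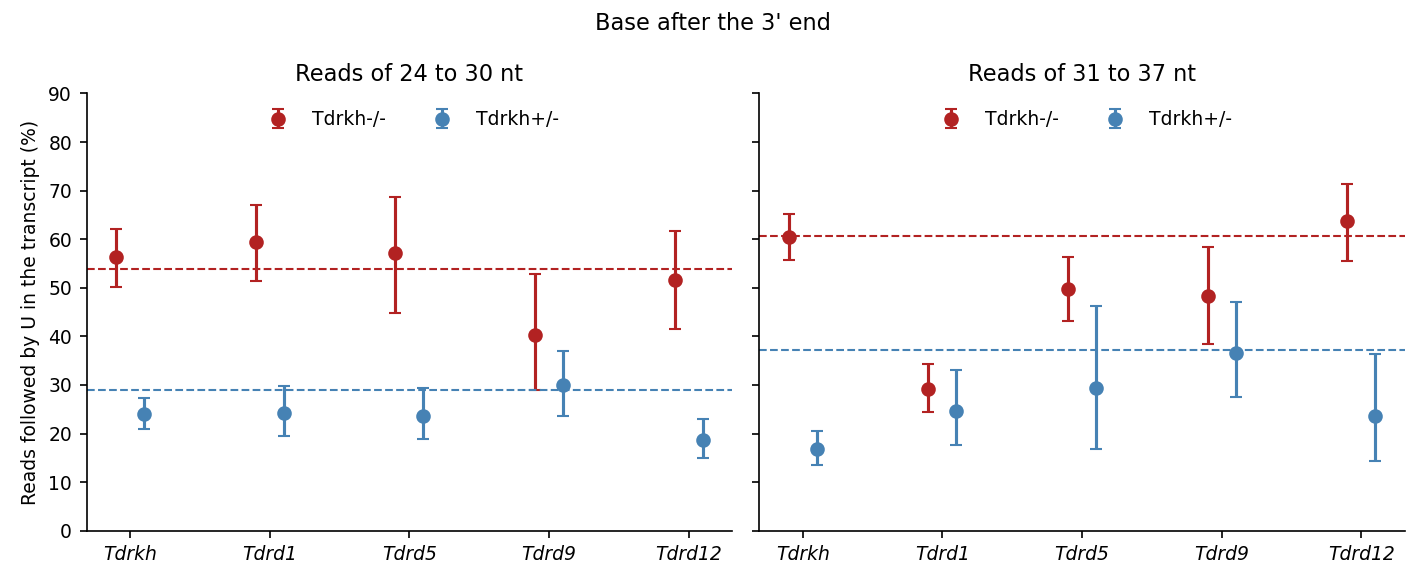
Percent of reads followed by U in the transcript (vertical axis) for each gene at 24 to 30 nt (left) and 31 to 37 nt (right), with 95% Wilson intervals, in Tdrkh-/- (red) and Tdrkh+/- (blue). Dashed lines are all sequences in a single gene; the red point lies above the blue point for each gene in both panels.

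The last base of the longer reads was more often A in Tdrkh-/-. At 31 to 37 nt the reads of the 5 genes ended in A in 29.7% in Tdrkh-/- and 8.80% in Tdrkh+/-, and by distinct sequences in 29.0% and 12.6%. All sequences in a single gene ended in A in 20.5% and 11.2%. A last U was found in 27.99% and 50.8% of the members' longer reads, and in 27.7% and 33.2% of the distinct sequences. At 24 to 30 nt a last A was found in 8.48% and 12.7% of the members' reads and in 17.98% and 11.99% of all sequences in a single gene, so the libraries stood in opposite order, and Tdrd1 with 11.5% and 6.92% followed the latter. C was the members' most frequent last base at that length, with 38.4% and 37.96%.

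Some of the longer reads in Tdrkh-/- began exactly where piRNA-size reads began in Tdrkh+/-. The 1368 single-gene sequences had 979 different 5′ ends, 379 used in Tdrkh-/-, 732 in Tdrkh+/- and 132 in both. Of the 1161 Tdrkh-/- reads of 31 to 37 nt, 420 (36.2%, 33.5 to 38.98%) began at a 5′ end of a 24 to 30 nt read in Tdrkh+/-. With starts shifted by 1 to 10 nt in either direction the median was 9.17% and the highest 21.4%. Most starts lie at a U and shifted starts often do not, so the shifted shares do not account for the 5′ U common to both lengths. The unshifted share was 52.8% for Tdrkh, 36.4% for Tdrd1, 24.7% for Tdrd9 and 24.4% for Tdrd5. For Tdrd12 it was 13.8%, and 1 of the shifted starts gave 38.4%, so its longer reads did not share ends with the shorter ones beyond neighbouring positions.

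At ends used in both libraries the reads were mostly longer in Tdrkh-/-. Of 69 ends read 3 or more times in both, the mean length was higher in Tdrkh-/- at 50 and lower at 15. The median difference was 1.88 nt, within a range from -7 to 12 nt. It was higher at 20 of 29 ends in Tdrkh, 15 of 17 in Tdrd1, 6 of 8 in Tdrd5 and 3 of 4 in Tdrd9. In Tdrd12 it was higher at 6 and lower at 5 of 11, with a median difference of 0.20 nt. The end at base 94432689 of chromosome 3 in the Tdrkh 3′ UTR had reads of 32.5 nt on average in Tdrkh-/- (42 reads) and 26.9 nt in Tdrkh+/- (62 reads). At Tdrd5, base 156277353 of chromosome 1, the means were 33.4 nt (11 reads) and 26 nt (46 reads). Lengths at shared ends were not computed over all genes either, so the counts of ends have no background.

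**Figure D5:**
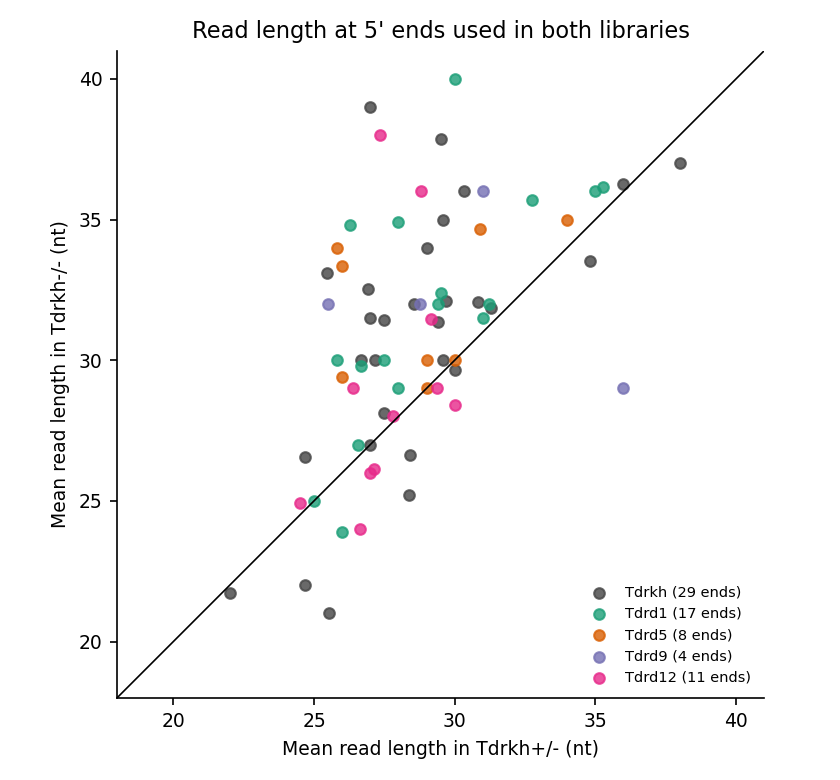
Mean read length (nt) at each of the 69 5′ ends read 3 or more times in both libraries, in Tdrkh+/- (horizontal axis) and Tdrkh-/- (vertical axis), coloured by gene. The line marks equal length; 50 ends lie above it, 15 below, and those of Tdrd12 are split between the sides.

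Other Tudor domain genes and other genes of the piRNA pathway were measured in the same way. Of 17 other Tudor domain genes 16 were in the annotation and 8 held 200 or more piRNA-size reads. Of these 6 were lower by 2-fold or more at the shorter length, 6 were higher by as much at the longer one and 8 had longer reads, with median log2 ratios of -1.44 and 1.31. Akap1, a mitochondrial anchoring protein with a Tudor domain, had ratios of -1.15 and 2.67, Phf20, a chromatin reader, -1.98 and 1.89, and Mtf2, a Polycomb-like protein, -0.93 and 2.20. Of 24 other piRNA pathway genes 13 were measured, with 10 lower, 10 higher and 13 longer, and medians of -1.45 and 1.42. Piwil2, a PIWI protein, did not fall at 24 to 30 nt, with 2359 and 2046 reads (0.13), and rose at 31 to 37 nt with 4275 and 1962 (1.04). Exd1, a partner of Tdrd12, had -1.45 and 2.24, and Tex15, which takes part in silencing of transposons, -0.996 and 1.18. The medians of the 5 members were -1.59 and 1.25.

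Markers of the cells a testis at this age holds were read as hosts in the same way, and their part in the members' values was not tested. All 6 spermatogonial markers were measured, with summed 24 to 30 nt reads of 9719 in Tdrkh-/- and 12149 in Tdrkh+/- and 4 at least 2-fold lower. Lin28a, an RNA-binding protein, gave 7694 and 5711 of these reads, and the other 5 markers together had 2025 and 6438. Of 7 early meiosis markers 6 were measured, with sums over the list of 1165 and 3071 and 4 lower, and Spo11 had 0 reads of this length in Tdrkh-/-. The Sertoli list had sums of 391 and 481 with 1 of 6 genes measured and Rhox5 at 0 in both, and the Leydig list 317 and 582 with 1 of 5. The peritubular list had 772 and 373 with 2 of 4 measured. Its reads were the only ones of the 5 cell type lists with a higher sum in Tdrkh-/- at 24 to 30 nt, 627 and 243 of them from Myh11, a smooth muscle myosin.

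The hosts with the most similar values were found by the distance over 4 numbers, the log2 level of each gene per microRNA read at both lengths in both libraries, among 9312 genes. Nearest to Tdrd12 was Polr2e, a subunit shared by the RNA polymerases, at a distance of 0.175, followed by Stk11, a protein kinase, at 0.219. Nearest to Tdrd9 was Cdk2, a cyclin-dependent kinase, at 0.183, followed by Sf3b6, a splicing factor subunit, at 0.264. Tdrd5 had Qrsl1 at 0.192 and Prrg3 at 0.244, and Tdrd1 had Copg2 at 0.208 and Spag5 at 0.210. Tdrkh had no host as near, with P4hb, a protein disulfide isomerase, at 0.501 and Eef1g, a translation elongation factor subunit, at 0.520. None of these 10 genes is in the Tudor or piRNA lists.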

How the data were processed

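Per the labels' protocols, gel-purified small RNAs of 15 to 40 nt were sequenced with an Illumina kit and instrument. The authors deposited, for each library, a list of the distinct sequences with the raw count of reads of each. Bowtie and mm9 are named in the submitters' processing notes, while their versions, the trimming and any filter are not given there. Sequences of 18 to 40 nt were matched here, exactly and in full, to GENCODE M21 transcripts (GRCm38; no genome was used) with Python 3.11.15, NumPy 2.4.6, Numba 0.67.0, pandas 2.3.3 and SciPy 1.17.1, and figures drawn with Matplotlib 3.10.9. For 60 sequences the matches were checked by searching every transcript as text, and 0 differed, and the ratio calculation was tested on simulated data. Coordinates are those of GRCm38 throughout.

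MicroRNA reads were those of 18 to 25 nt in microRNA genes, unless found in more than 20 genes. Ratios are Tdrkh-/- over Tdrkh+/- per microRNA read. A gene was called at a 2-fold difference, with no test, as each genotype has 1 library. Depth was 60973266 and 43172204 reads. Shares carry 95% Wilson intervals, ratios exact conditional binomial intervals and small counts exact Poisson intervals. Intervals and the floor of 3 counts cover counting error only, since no molecular identifiers mark which reads are copies. The reference transcript of a gene was its longest principal one, and a read was placed by its 5′ base.

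The members, gene lists, length windows and alternatives were chosen with earlier results of these data known. Named genes are the 5 members, from each of the Tudor and piRNA pathway lists the 3 with the most 24 to 30 nt reads, and the 2 most similar genes per member; markers were named after their values were seen. Named sequences are the most abundant per gene, length class and library, and the most abundant at the most shared 5′ end. The background of genes with at least 200 reads was added because 4 members have under 500. Alternatives were distinct sequences, no sequences read once, narrower windows, single-gene sequences, other scalings and, added after seeing the data, leaving out the most abundant sequence, leaving out Tdrkh, the distinct count over all genes and for messenger parts, and the other scalings over all genes and over 24 to 40 nt.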

Additional observations from a re-analysis of the deposited data

Results flagged for a closer look

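Reads on the strand opposite to the genes, outside the sense comparison, were more frequent in Tdrkh-/- for 3 of the 5 genes. Antisense to Tdrkh there were 348 reads in Tdrkh-/- and 3 in Tdrkh+/-, from 23 sequences, each of which also matches some transcript in sense, so none can be assigned to Tdrkh. Antisense to Tdrd5 there were 21 and 8 reads, of which 1 and 0 had no sense match elsewhere. Antisense to Tdrd1 there were 16 and 3 reads, from 6 sequences with no sense match. Tdrd9 and Tdrd12 had 0 antisense reads in both libraries.

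Sense reads outside the 2 length windows were also more frequent in Tdrkh-/- per microRNA read. At 18 to 23 nt the 5 genes had 154 and 86 reads, a ratio of 1.70, though Tdrd12 with 15 and 18 and Tdrd5 with 13 and 13 reads were not higher. Reads of 38 to 40 nt numbered 329 and 139, a ratio of 2.24, and all 5 genes had more of them in Tdrkh-/-, from 26 and 17 in Tdrd9 to 77 and 16 in Tdrkh. For Tdrd9 the log2 ratio was 0.53 with an interval that spans 0 (-0.40 to 1.51). Ratios at 18 to 23 and 38 to 40 nt were not computed over all genes, so these values have no background. The gel cut ended at 40 nt, so longer RNAs were not analysed here.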

How the results depend on the processing

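In 5 of 5 genes the balance moved towards longer reads under every alternative run. The count of genes at least 2-fold lower at 24 to 30 nt was 4, and 5 with distinct sequences, with narrower windows, per read listed, per read sense to protein-coding genes and without the most abundant Tdrkh-/- sequence; without Tdrkh it was 3 of 4. The count at least 2-fold higher at 31 to 37 nt was 3, but 1 with each distinct sequence counted once, 1 per read listed, 2 per read sense to protein-coding genes and 4 with narrower windows. The share over all genes was not computed with narrower windows or without the most abundant sequence, so those counts have no background. The Tdrd12 ratio at 31 to 37 nt turned from 1.25 to -0.48 with distinct sequences, still set against microRNA reads. Exons 2 to 4 of Tdrkh had 0 and 9 distinct sequences, and 0 and 17 reads whether or not reads had to lie wholly inside. Scaling per read listed shifted every log2 ratio by -0.42 and scaling per read sense to protein-coding genes by -0.32; both left 5 genes below 0 at 24 to 30 nt and 3 above 0 at 31 to 37 nt. Of 80 gene values under alternatives 54 stayed within the counting interval of the reported value, 25 moved beyond it and 1 reversed. Including that one, 6 values changed sign, all at 31 to 37 nt. Tdrkh went from -0.18 to 1.27 in narrower windows and to 0.58 without the most abundant Tdrkh+/- sequence, and Tdrd9 from -0.03 to 0.92 and 0.16 in the same order and to 0.37 without sequences read once. Why these values moved was not tested. No paired analysis was possible because each genotype has 1 library. Depth limits the exon comparison, which rests on 17 reads, and the values of Tdrd9, the gene with the fewest reads.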
